A study of Mus musculus with 8 samples.

Results

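The circadian clock genes were followed through whole perigonadal fat of 8 C57BL/6 mice. The 10 members were taken by symbol from a list (Arntl, Clock, Npas2, Per1, Per2, Per3, Cry1, Dbp, Nr1d1 and Nr1d2), among 23212 genes counted, and all 10 passed the filter on low counts that left 14493 genes to be tested. The mice were 4 with an adipocyte-specific gene knockout and 4 wild type, matched for age and weight. All were killed at 20 weeks of age after 12 weeks on a 45% fat diet begun at 8 weeks. The deletion is labelled as specific to adipocytes, while RNA came from the whole tissue, so transcripts of every other cell of the fat pad were read as well. The sources used here give neither the promoter that drives the deletion nor the time of day at which the mice were killed. The questions were whether the clock genes differed between knockout and wild type, and whether they moved together from mouse to mouse in the way of tissues taken at different phases of the daily cycle.

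The circadian clock is a transcriptional feedback loop that runs in nearly every cell, adipocytes included. BMAL1 (encoded by Arntl) pairs with CLOCK or its relative NPAS2 and activates genes that carry an E-box, among them the Per and Cry genes, whose proteins return to repress that activation. In a second loop BMAL1 activates Nr1d1 and Nr1d2, which encode the nuclear receptors REV-ERB alpha and REV-ERB beta. REV-ERB proteins bind the response element shared with the ROR receptors (RORE) and repress Arntl and Npas2 by recruiting corepressor complexes. Dbp is a direct output of the loop and encodes a transcription factor that binds D-boxes, as in Per3. In mouse tissues Arntl and Npas2 transcripts therefore peak in opposite phase to Dbp, Nr1d1 and Per3, Cry1 peaks later than Dbp, and Per1 is also induced acutely, for example by glucocorticoids.

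Windows from 250 bases before to 50 bases after the annotated start were available for 9 of the 10 members (RefSeq, GRCm38.p6, the assembly also called mm10), and 13 windows belonged to these genes. A window each of Arntl, Per3, Cry1 and Per1 is shown because it holds an E-box, a D-box or a RORE. These windows were chosen for their motifs, so the shares over all windows given below test nothing about the clock genes. Capitals mark every match, on either strand, to the E-box (CACGTG), the D-box (TTATGTAA), the RORE (searched in its degenerate form) or the nuclear receptor core (AGGTCA), which the RORE contains. The Arntl window lies at chr7:113207261-113207560 on the plus strand, that of Per3 at chr4:151044616-151044915 on the minus strand, that of Cry1 at chr10:85185005-85185304 on the minus strand and that of Per1 at chr11:69098699-69098998 on the plus strand.
Arntl: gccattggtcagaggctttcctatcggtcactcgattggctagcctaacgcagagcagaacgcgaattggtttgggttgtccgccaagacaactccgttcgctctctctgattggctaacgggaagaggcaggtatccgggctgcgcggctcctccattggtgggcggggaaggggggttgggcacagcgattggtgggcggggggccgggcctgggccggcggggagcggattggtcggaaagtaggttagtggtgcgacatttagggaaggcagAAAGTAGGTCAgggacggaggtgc
Per3: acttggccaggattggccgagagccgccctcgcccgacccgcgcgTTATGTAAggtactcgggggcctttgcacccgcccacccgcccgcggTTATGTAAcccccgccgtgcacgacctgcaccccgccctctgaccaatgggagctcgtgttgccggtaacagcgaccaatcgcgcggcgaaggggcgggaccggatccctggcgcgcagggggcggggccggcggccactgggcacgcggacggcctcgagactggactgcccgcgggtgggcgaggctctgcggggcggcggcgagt
Cry1: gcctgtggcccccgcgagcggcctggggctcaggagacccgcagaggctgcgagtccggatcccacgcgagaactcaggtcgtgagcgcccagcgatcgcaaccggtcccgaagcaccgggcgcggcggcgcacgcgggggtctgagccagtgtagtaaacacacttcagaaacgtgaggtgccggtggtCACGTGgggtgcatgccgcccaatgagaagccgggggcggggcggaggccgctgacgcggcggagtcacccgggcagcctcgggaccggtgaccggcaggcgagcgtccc
Per1: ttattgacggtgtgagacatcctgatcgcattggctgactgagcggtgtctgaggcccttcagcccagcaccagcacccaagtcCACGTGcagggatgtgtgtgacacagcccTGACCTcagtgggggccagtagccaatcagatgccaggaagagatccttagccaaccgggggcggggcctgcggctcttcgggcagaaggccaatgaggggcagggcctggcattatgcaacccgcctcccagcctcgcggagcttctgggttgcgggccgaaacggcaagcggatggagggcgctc
The Arntl window held 1 RORE, a motif found in 0.384% of all 32851 windows of this length. The Per3 window held 2 D-boxes, where 0.938% of windows held any. Cry1 and Per1 each held 1 E-box, found in 7.15% of windows, and Per1 also held 1 nuclear receptor core on the other strand, found in 16.3% of windows. The other Arntl window, which starts a little upstream, the other Per1 window and the windows of Npas2, Dbp and Nr1d1 held none of these motifs. The Nr1d2 window and 1 of the 3 Clock windows held the nuclear receptor core alone. A match describes the letters and is not a measured binding site.

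In the authors' deposited annotation (mm10) the members lie at single loci. Of the activators, Arntl spans chr7:113207465-113314126 on the plus strand, Clock chr5:76212177-76304548 on the minus strand and Npas2 chr1:39194272-39363240 on the plus strand. The repressors lie at chr11:69098956-69109957 on the plus strand (Per1) and, on the minus strand, at chr1:91415982-91459328 (Per2), chr4:151003655-151044622 (Per3) and chr10:85131700-85185054 (Cry1). The REV-ERB genes lie on the minus strand at chr11:98767935-98775242 (Nr1d1) and chr14:18204056-18239106 (Nr1d2), and Dbp on the plus strand at chr7:45705247-45710203. Dbp shares 539 of its exonic bases, 32.12% of them, with Sphk2, the sphingosine kinase gene on the opposite strand, and no source used here gives the strand setting of the counting. Reads from those bases cannot be assigned to Dbp with certainty. Sphk2 stood at 36.7 ± 3.46 CPM in knockout and 34.0 ± 2.25 CPM in wild type (SD, n = 4 each), where CPM are counts divided by the scaled library total. Its range was narrower than that of Dbp. No other member shared exonic bases with another gene.

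The libraries held 46444435 to 51431956 counts each, so counting error was small for every member except Npas2, which had 17 to 100 counts per library. Adipocyte markers summed to 40013 to 50988 CPM in knockout and 36488 to 49625 CPM in wild type, which fits the labelled tissue. The epithelial and ciliated cell markers Epcam, Foxj1 and Cuzd1 stood high in knockout mouse 2 and wild-type mouse 3, and Krt8, the remaining tested marker of that list, was highest in wild-type mouse 2, at 29.5 CPM. The 4 markers summed to 112 CPM in knockout mouse 2 and 38.5 CPM in wild-type mouse 3, and to 2.53 to 29.9 CPM in the remaining mice. Foxj1, the master regulator of motile cilia, was at 26.1 CPM in knockout mouse 2 and 7.97 CPM in wild-type mouse 3, against 0.287 CPM or less elsewhere. Without that pair of mice 0 members passed in edgeR, with log2 fold changes of 0.51 for Arntl, 0.68 for Npas2, -0.09 for Clock, -0.23 for Cry1 and 0.27 for Per1. In bulk tissue, fewer cells of a type and less RNA per cell cannot be told apart.

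Knockout and wild type did not separate on any clock gene. By edgeR's quasi-likelihood test 0 of the 10 members passed an adjusted p of 0.05, where 2 genes, or 0.0138%, passed among all tested. At an unadjusted p under 0.05 there were also 0 members by edgeR, DESeq2 and limma voom, against 2.23% of all genes by edgeR. The groups overlapped for all 10 members, and 1.44% of all genes had groups that did not overlap. The median log2 fold change, knockout over wild type, was 0.030 over the members and 0.011 over all tested genes, with 6 members above 0 and 4 below.

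**Figure D1:**
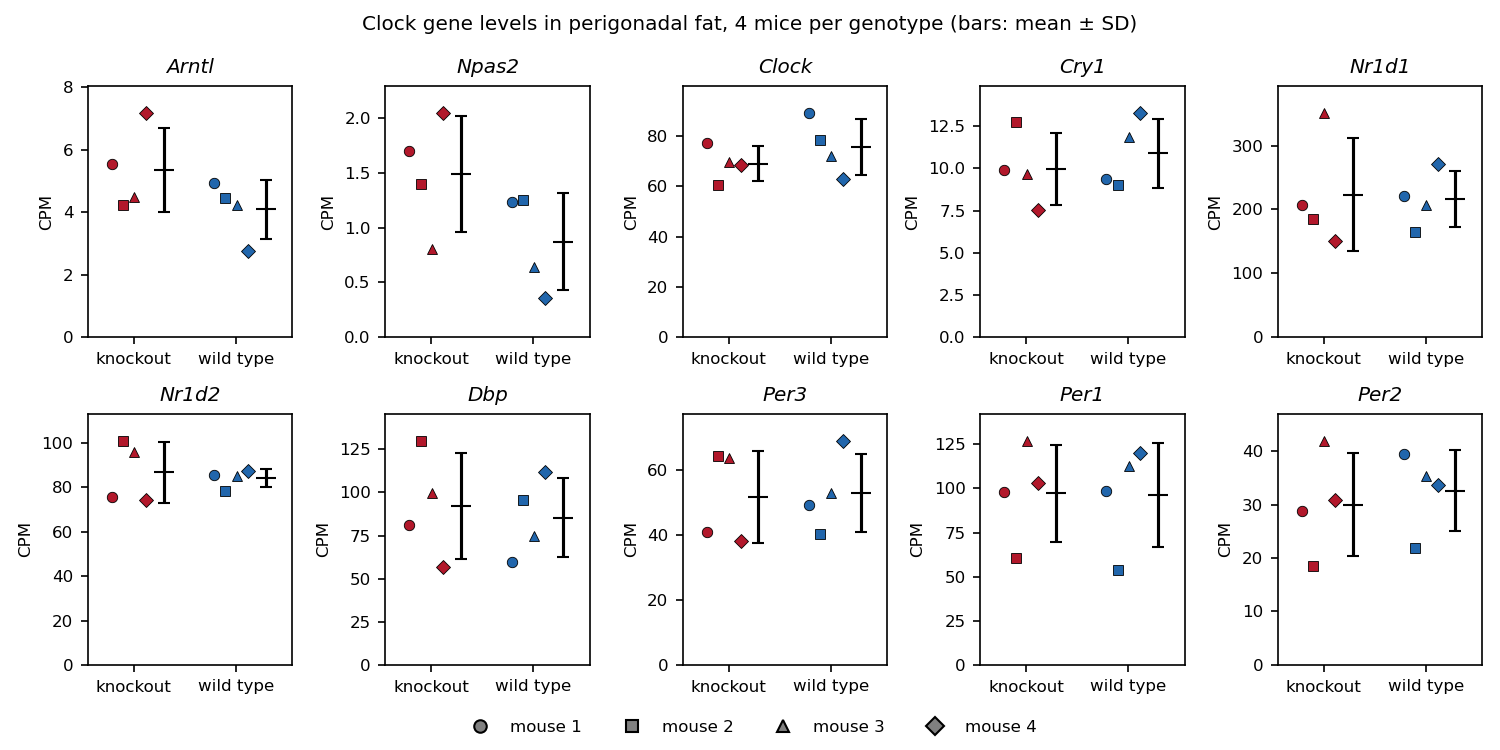
Level of each clock gene in each mouse, in CPM on the y axis of each panel, with knockout (red) left of wild type (blue), a marker shape for each mouse number, and bars for the mean ± SD of 4 mice. The groups overlap in all 10 panels, and Per1 and Per2 are low in knockout mouse 2 and wild-type mouse 2.

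Among the activators, Arntl was at 5.54, 4.24, 4.48 and 7.18 CPM in the knockout mice, against 4.93, 4.45, 4.25 and 2.74 CPM in the wild-type mice. The highest value belonged to knockout mouse 4 and the lowest to wild-type mouse 4, with the other mice overlapping. Means were 5.36 ± 1.34 CPM in knockout and 4.09 ± 0.944 CPM in wild type (SD, n = 4 each). The log2 fold change of Arntl was 0.39, with a standard error (SE) of 0.25 and an adjusted p of 1 in edgeR. Npas2, the alternative partner of BMAL1, was at 1.70, 1.40, 0.80 and 2.05 CPM in knockout and at 1.24, 1.25, 0.643 and 0.356 CPM in wild type. The extremes were the same mice as for Arntl, knockout mouse 4 at the top and wild-type mouse 4 at the bottom. Its log2 fold change was 0.77 (SE 0.46), the largest of the members, and 2 SE on either side reached from -0.16 to 1.69 (edgeR adjusted p = 1, two-sided exact permutation p = 0.143, the smallest of the members, where 4 against 4 mice can give 0.0286).

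Clock, whose product pairs with BMAL1, was at 77.4, 60.3, 69.8 and 68.3 CPM in knockout and at 89.1, 78.2, 71.9 and 62.8 CPM in wild type. Knockout mouse 2 was lowest and wild-type mouse 1 highest. The log2 fold change was -0.13 (SE 0.125), with 2 SE reaching from -0.38 to 0.12. Clock was among the steadier members: its SD of log2 CPM within genotypes was larger than that of 33.1% of tested genes, whereas that of Npas2 was larger than that of 87.5%.

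Of the repressors, Per1 was at 98.1, 60.6, 127 and 103 CPM in knockout and at 98.7, 53.7, 112 and 120 CPM in wild type. Per2 was at 28.8, 18.4, 41.9 and 30.8 CPM in knockout and at 39.5, 21.8, 35.3 and 33.7 CPM in wild type. Both were lowest in knockout mouse 2 and wild-type mouse 2, and both highest in knockout mouse 3. Log2 fold changes were 0.02 (SE 0.28) for Per1 and -0.12 (SE 0.26) for Per2, with groups that overlapped. Per1 means were 97.3 ± 27.5 CPM in knockout and 96.2 ± 29.6 CPM in wild type (SD, n = 4 each).

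Per3, the Period paralogue with D-boxes at its start, followed another order of mice. It was at 41.0, 64.4, 63.6 and 38.2 CPM in knockout and at 49.2, 40.3, 52.8 and 69.1 CPM in wild type. The low mice were knockout 1 and 4 and wild-type 2, and the high ones knockout 2 and 3 and wild-type 4. Cry1, a cryptochrome that represses CLOCK and BMAL1 directly, was at 9.90, 12.7, 9.66 and 7.53 CPM in knockout and at 9.39, 9.02, 11.9 and 13.3 CPM in wild type. As with Per3, knockout mouse 4 was lowest and wild-type mouse 4 highest. The log2 fold changes were -0.03 (SE 0.22) for Per3 and -0.13 (SE 0.19) for Cry1.

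Nr1d1 was at 208, 185, 351 and 150 CPM in knockout and at 221, 164, 207 and 271 CPM in wild type. Knockout mouse 3 stood well above the rest, and knockout mouse 4 was lowest. The means were 223 ± 88.5 CPM in knockout and 216 ± 44.1 CPM in wild type (SD, n = 4 each), and the log2 fold change was 0.05 (SE 0.27). Nr1d2 was at 75.8, 101, 96.0 and 74.4 CPM in knockout and at 85.8, 78.3, 85.2 and 87.4 CPM in wild type. It was the steadiest member, with an SD within genotypes larger than that of 29.0% of tested genes and a log2 fold change of 0.04 (SE 0.12), 2 SE reaching from -0.19 to 0.28.

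Dbp was at 81.4, 130, 99.9 and 57.0 CPM in knockout and at 59.7, 95.4, 75.0 and 112 CPM in wild type. Knockout mouse 4 was lowest and knockout mouse 2 highest, so the knockout mice alone spanned 2.28-fold, against 1.87-fold for the wild-type mice. The log2 fold change was 0.11 (SE 0.27). Without knockout mouse 2 it turned to -0.11, and leaving out single mice also turned the signs of Per1, Per2, Per3, Nr1d1 and Nr1d2, while Arntl and Npas2 stayed above 0 and Clock and Cry1 below 0 in every such fit.

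Per length of exon, in RPKM (CPM divided by exon length), the order of the mean levels over 8 mice ran from Nr1d1 to Npas2. Nr1d1 stood at 83.6 ± 24.7 RPKM and Dbp at 52.9 ± 15.1 RPKM, with Nr1d1 higher in 7 of 8 mice and ranges that overlapped. Per1 followed at 20.6 ± 5.64 RPKM and Nr1d2 at 18.4 ± 2.04 RPKM, and these neighbours did not differ beyond their spread. Clock at 9.66 ± 1.24 RPKM and Per3 at 8.79 ± 2.04 RPKM also overlapped, with Clock higher in 5 of 8 mice. Per2 was at 5.36 ± 1.40 RPKM, Cry1 at 3.46 ± 0.661 RPKM, Arntl at 1.63 ± 0.436 RPKM and Npas2 at 0.282 ± 0.134 RPKM (SD over all 8 mice). The ranges of Cry1, Arntl and Npas2 did not overlap with each other. Transcripts of the REV-ERB and Dbp branch were thus more abundant than those of BMAL1 and its partners in every mouse.

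The rest of the clock system was also without a call between genotypes. Of 9 other clock loop genes 8 were tested (Rorb was too low), 4 were above 0 and 4 below, and 0 passed in edgeR or reached an unadjusted p under 0.05. Cry2, the second cryptochrome, was at 85.8 ± 13.3 CPM in knockout and 92.7 ± 7.70 CPM in wild type. Bhlhe40, an E-box repressor also called DEC1, was at 34.4 ± 13.3 CPM in knockout and 29.2 ± 5.27 CPM in wild type, and its relative Bhlhe41 at 5.76 ± 1.41 CPM in knockout and 5.05 ± 0.969 CPM in wild type (SD, n = 4 each). Rora, a receptor that binds the RORE, was at 3.10 ± 0.578 CPM in knockout and 3.28 ± 1.04 CPM in wild type.

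Of 8 clock output genes 7 were above 0 and 1 below, with a median log2 fold change of 0.12 beside 0.011 over all genes, and 0 passed. Hlf, a D-box factor related to Dbp, had the smallest p of them, at 20.7, 27.4, 17.7 and 18.6 CPM in knockout and 14.5, 13.2, 18.0 and 20.2 CPM in wild type (log2 fold change 0.36, SE 0.18, edgeR adjusted p = 1). Klf10 was at 44.4 ± 3.12 CPM in knockout and 41.7 ± 2.73 CPM in wild type, and Nampt, which makes the NAD precursor nicotinamide mononucleotide, at 131 ± 12.4 CPM in knockout and 140 ± 8.68 CPM in wild type. A list of 10 genes held kinases and ubiquitin ligases that act on clock proteins, and also Timeless, which is neither. Of these 10 genes 5 were above 0 and 5 below, and 0 passed. The smallest p there belonged to Fbxl21, whose F-box protein acts on cryptochromes, at 1.06 ± 0.258 CPM in knockout and 1.38 ± 0.295 CPM in wild type. Csnk1d and Csnk1e, the casein kinases that phosphorylate PER proteins, had log2 fold changes of 0.06 (SE 0.085) and -0.06 (SE 0.12).

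**Figure D2:**
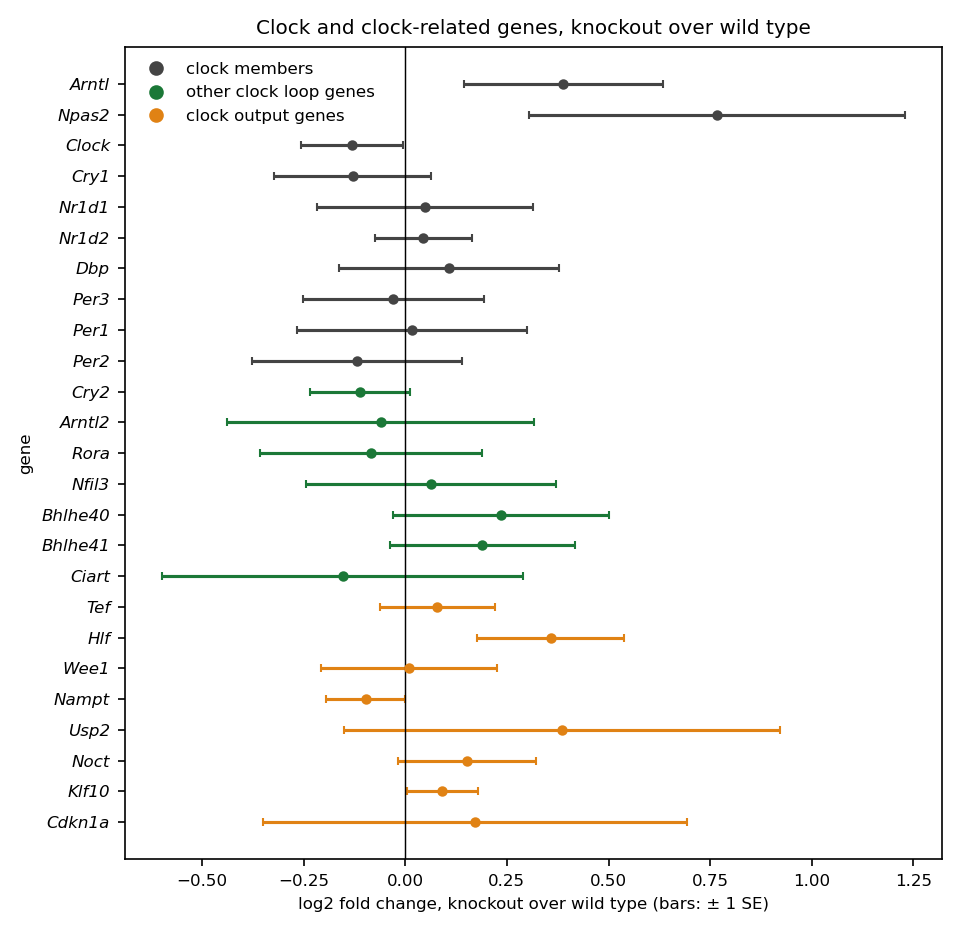
Log2 fold change, knockout over wild type, of the 10 clock members, 7 of the other clock loop genes and 8 clock output genes, with bars of 1 SE from the edgeR fit. None of the genes drawn passed an adjusted p of 0.05, and Npas2 at 0.77 lies farthest from 0.

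Several members varied together from mouse to mouse. Over all 8 mice Arntl and Npas2 were positively related, Per3, Nr1d2, Cry1, Dbp and Nr1d1 were each negatively related to both, and Per1 and Per2 had their lowest values in a different pair of mice. Not every mouse followed this: in knockout mouse 2 Npas2 was at 0.40 and Arntl at -0.11 from the mean of all mice on the log2 scale, while Per3 was at 0.33 and Dbp at 0.60. Knockout mouse 4 and wild-type mouse 4 sat at the ends. On the log2 scale, relative to the mean of all mice, knockout mouse 4 had Arntl at 0.64, Npas2 at 0.94, Dbp at -0.59 and Per3 at -0.42. Wild-type mouse 4 had Arntl at -0.73, Npas2 at -1.46, Dbp at 0.38 and Per3 at 0.44. Knockout mouse 3 had the highest Nr1d1, at 0.73 above the mean. Each genotype held mice on both sides of this pattern.

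**Figure D3:**
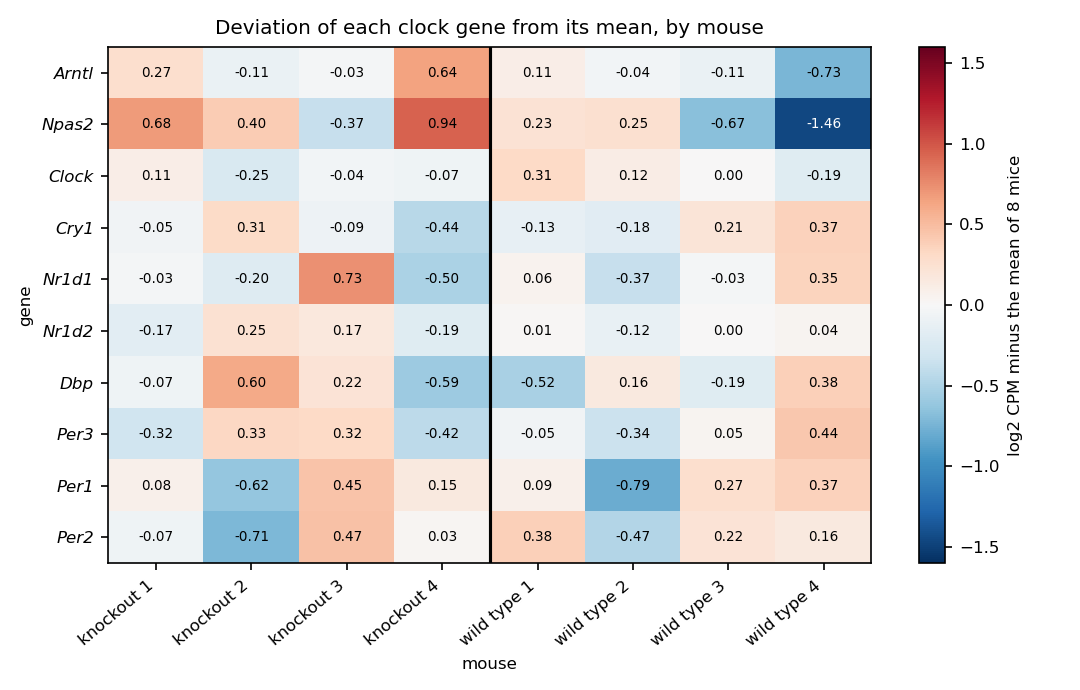
Log2 CPM of each clock gene (rows) in each mouse (columns) minus that gene's mean over 8 mice, with red above and blue below the mean and knockout mice left of wild-type mice. Arntl and Npas2 have the opposite sign to Dbp and Per3 in knockout mouse 4 and wild-type mouse 4, and Per1 and Per2 share their low values in knockout mouse 2 and wild-type mouse 2.

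The 45 pairs of members were compared over the 8 mice by Pearson's r of log2 CPM and tested exactly, two-sided, by permuting the mice over 40320 arrangements. After Benjamini-Hochberg adjustment over the pairs 0 passed 0.05, the smallest adjusted p being 0.0741, and 8 had an unadjusted exact p under 0.05, 5 of them positive and 3 negative. An r of 0.8 or more in size was reached by 4 pairs, or 8.89%, against 4.04% of all 105016278 pairs of tested genes. Of the 4 pairs 3 were positive and 1 was negative, beside 2.16% and 1.87% of all pairs. The pairs share genes and mice and are not independent of each other. Without the pair of mice with epithelial markers, r was 0.96 for Arntl and Npas2, -0.93 for Arntl and Cry1, -0.92 for Npas2 and Per3 and 0.90 for Per3 and Nr1d1 over 6 mice, with 0 pairs past the adjustment (smallest adjusted p = 0.125, exact permutation test).

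Arntl and Npas2 moved together over the mice, with r = 0.89 (exact permutation p = 0.00218, adjusted p = 0.0741, 8 mice), and Spearman's rho was 0.69 (exact permutation p = 0.0694). Of 14492 other tested genes, 20 had a higher r with Arntl than Npas2 had. Without knockout mouse 4 and wild-type mouse 4, which lay farthest from the median of Arntl, r was 0.61 over 6 mice (exact permutation p = 0.183), so the relation rests in part on that pair. With the genotype means subtracted r was 0.84, and leaving out single mice gave 0.75 to 0.94. Without knockout mouse 2 it was 0.94, which passed the adjustment over pairs (adjusted p = 0.0357, exact permutation test). Without wild-type mouse 4 it was 0.75 (adjusted p = 0.421, exact permutation test). The pair did not pass with any other single mouse left out.

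Of the genes that the loop places in opposite phase, Per3 and Dbp had an r with Arntl of larger size than Nr1d1 had, a difference that was not tested. The r of Arntl was -0.78 with Per3 (exact permutation p = 0.00613, adjusted p = 0.0741; rho -0.81, exact permutation p = 0.0218) and -0.69 with Dbp (exact permutation p = 0.0513, adjusted p = 0.23; rho -0.76, exact permutation p = 0.0368). Without the mice numbered 4 in each genotype, r was -0.59 with Per3 and -0.48 with Dbp over 6 mice. With the genotype means subtracted these values were -0.88 and -0.89. With Nr1d1, whose product represses Arntl, r was -0.52 (exact permutation p = 0.175, adjusted p = 0.357). Its rho was -0.24 (exact permutation p = 0.582). This r was 0.05 without the mice numbered 4, -0.75 to -0.28 with single mice left out, and -0.62 with the genotype means subtracted. Arntl and Nr1d2 had r = -0.53 (exact permutation p = 0.172, adjusted p = 0.357), and -0.69 with the genotype means subtracted. Npas2 and Nr1d1 had r = -0.65 (exact permutation p = 0.0792, adjusted p = 0.231), and -0.78 with the genotype means subtracted. Npas2 and Per3 had r = -0.73 (exact permutation p = 0.0408, adjusted p = 0.23; rho -0.69, exact permutation p = 0.0694), and -0.69 without wild-type mice 3 and 4.

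Per3, which carries D-boxes, and Nr1d2, the REV-ERB beta gene, had r = 0.89 (exact permutation p = 0.00652, adjusted p = 0.0741; rho 0.88, exact permutation p = 0.00724). Without knockout mouse 4 and wild-type mouse 4 it was 0.97 over 6 mice (exact permutation p = 0.0139), and leaving out single mice gave 0.85 to 0.98. Without wild-type mouse 4 alone the pair passed the adjustment (adjusted p = 0.0446, exact permutation test). Per3 and Nr1d1 had r = 0.71 (exact permutation p = 0.0480, adjusted p = 0.23; rho 0.64, exact permutation p = 0.0962), and 0.53 without mice 4 of both genotypes.

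Cry1 stood with Per3 and against Arntl. Its r with Arntl was -0.84 (exact permutation p = 0.00823, adjusted p = 0.0741; rho -0.79, exact permutation p = 0.0279) and with Per3 0.80 (exact permutation p = 0.0218, adjusted p = 0.164; rho 0.88, exact permutation p = 0.00724). Without mice 4 of both genotypes these were -0.51 and 0.59 over 6 mice. With Dbp, which peaks ahead of it in mouse tissues, Cry1 had r = 0.70 (exact permutation p = 0.0543, adjusted p = 0.23; rho 0.69, exact permutation p = 0.0694).

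Over all 8 mice Per1 and Per2 were weakly related to most other members. Knockout mouse 2 and wild-type mouse 2 lay below the other 6 mice for both genes, so that the pooled r of 0.90 (exact permutation p = 0.00796, adjusted p = 0.0741; rho 0.81, exact permutation p = 0.0218) rests on that pair of mice. Among the other 6 mice r was 0.52 (exact permutation p = 0.297). Over the 8 mice neither Per1 nor Per2 had an r beyond 0.50 in size with Arntl, Npas2, Clock, Cry1, Nr1d2, Dbp or Per3. With Nr1d1, r was 0.63 for Per1 (exact permutation p = 0.0867, adjusted p = 0.231; rho 0.64, exact permutation p = 0.0962) and 0.64 for Per2 (exact permutation p = 0.0875, adjusted p = 0.231; rho 0.69, exact permutation p = 0.0694). In the 6 mice without knockout mouse 2 and wild-type mouse 2, Per1 had an r of 0.84 with Per3 (exact permutation p = 0.0458), 0.78 with Nr1d2 (exact permutation p = 0.0750) and 0.76 with Dbp (exact permutation p = 0.0931). Per2 had an r of 0.89 with Nr1d2 in those 6 mice (exact permutation p = 0.0319), 0.62 with Per3 and 0.16 with Dbp. These p-values are not adjusted.

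**Figure D4:**
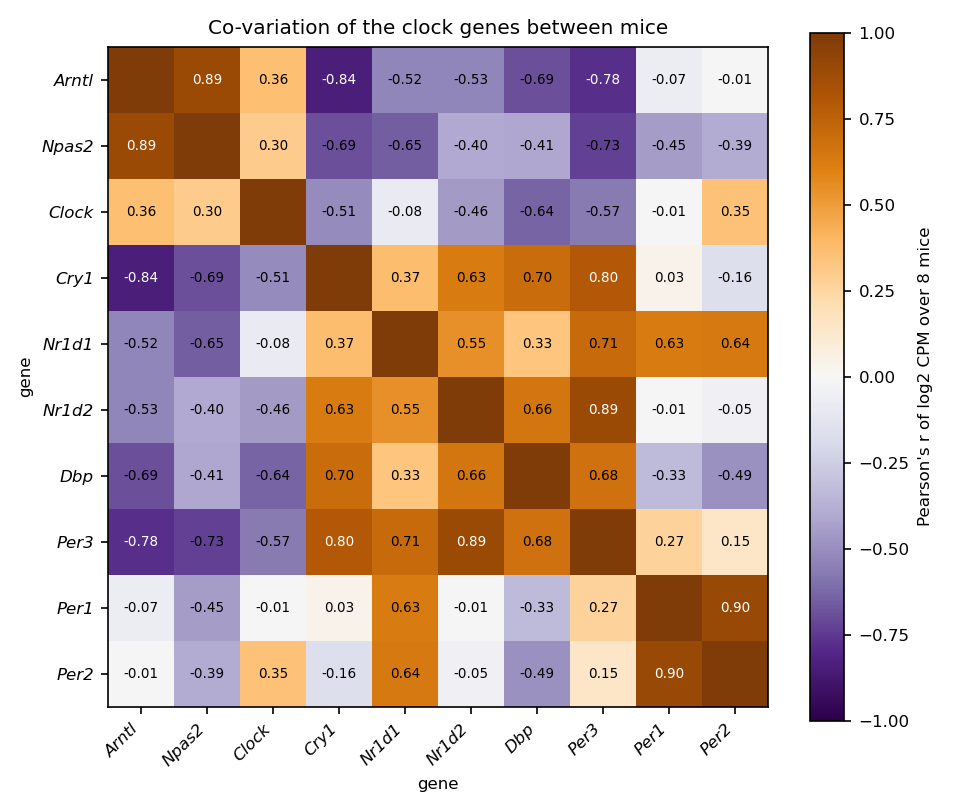
Pearson's r of log2 CPM over 8 mice for each pair of clock genes, from -1 (purple) to 1 (brown). Arntl and Npas2 form a pair at 0.89, Cry1, Nr1d1, Nr1d2, Dbp and Per3 are positive with each other and negative with Arntl, and Per1 and Per2 pair at 0.90.

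A clock contrast was taken for each mouse as the mean log2 level of Dbp, Nr1d1, Nr1d2 and Per3 minus that of Arntl, Npas2, Clock and Cry1, with genotype means subtracted. It stood at -0.29, 0.27, 0.60 and -0.58 in the knockout mice and at -0.37, -0.32, -0.01 and 0.69 in the wild-type mice. Knockout mice 2 and 3 and wild-type mouse 4 thus lay on the Dbp side, wild-type mouse 3 near 0 and the rest on the Arntl side. Cry1 had been set on the Arntl side and varied the other way, with an r of 0.75 with the contrast. Without Cry1 the contrast kept its order at the ends, at -0.76 in knockout mouse 4 and 0.92 in wild-type mouse 4.

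Genes outside the clock followed the contrast too. Of the members that form it, Arntl and Npas2 had an r of -0.94 with it, Per3 0.93 and Clock -0.66. Nr1d1, Dbp and Nr1d2 were at 0.76 to 0.78. These values are in part built in. Of 12899 other genes at a mean of 1 CPM or more, 4.16% had an r of 0.8 or more in size with the contrast, 219 positive and 318 negative. Among all pairs of tested genes, without genotype means subtracted, 4.04% did. An r of 0.9 or more in size was reached by 0.643% of the other genes. The 8 with the highest r were Chdh (0.97, choline dehydrogenase), Mcm9, 1300018J18Rik, Dixdc1, Hsd17b10, Osbpl1a, Fuk and Fbxo31, down to 0.95. The 8 with the lowest were Slc38a1 (-0.97, an amino acid transporter), Nras, Lsm11, Trim59, Galnt6, Rasa1, Tiam1 and Ifngr2, up to -0.95. Chdh ranged from 38.2 to 116 CPM over the 8 mice, at 67.7 ± 31.9 CPM in knockout and 67.5 ± 33.7 CPM in wild type (SD, n = 4 each). Slc38a1 ranged from 3.90 to 17.7 CPM, at 8.59 ± 4.52 CPM in knockout and 12.1 ± 5.58 CPM in wild type.

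Of the listed clock genes beyond the members, chosen here after their values were seen, Tef had r = 0.91 with the contrast and Nampt 0.87. The clock output genes went both ways. Klf10 was at -0.76, Cdkn1a at -0.62 and Noct at -0.56, with Hlf at 0.50, Usp2 at 0.15 and Wee1 at -0.19. Tef, a D-box factor related to Dbp, was at 182, 232, 248 and 173 CPM in knockout and at 195, 187, 184 and 225 CPM in wild type, so it was high in the same mice as Per3. Timeless, a partner of the replication fork named for its fly relative, had r = -0.85, and Ciart, an E-box driven repressor listed as Gm129, had 0.75. Bhlhe41 followed Dbp with r = 0.94 over the 8 mice. These values describe 8 mice and carry no test.

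Markers of some cell types of the fat pad were related to some members, though only before adjustment. Over all 140 relations of members with lists the smallest adjusted p was 0.472 (exact permutation test). All 5 mesothelial markers (Upk3b, Msln, Upk1b, Lrrn4 and Krt19) were detected in every mouse, with none at 0, and their sum ranged from 111 to 853 CPM in knockout and from 179 to 969 CPM in wild type. Over the 8 mice their mean log2 level had r = -0.84 with Per3 (exact permutation p = 0.0142, adjusted p = 0.515 over 140 relations of members with lists; rho -0.79, exact permutation p = 0.0279) and -0.79 without the 2 mice farthest from its median. Nr1d2 had r = -0.76 with it (exact permutation p = 0.0328; rho -0.71, exact permutation p = 0.0576; -0.66 over 6 mice) and Clock 0.72 (exact permutation p = 0.0427; rho 0.71, exact permutation p = 0.0576; 0.84 over 6 mice), both with an adjusted p of 0.515. With the mesothelial level regressed out of each gene, r was 0.86 for Arntl and Npas2, -0.85 for Arntl and Per3, 0.81 for Per3 and Cry1, 0.70 for Per3 and Nr1d2 and 0.44 for Per3 and Nr1d1. Of the 45 pairs 0 then passed the adjustment (smallest adjusted p = 0.129, permutation of the residuals).

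Other cell types varied between mice too. Macrophage markers, all 8 with a log2 fold change above 0 and a median of 0.74, summed to 660 to 2824 CPM in knockout and 477 to 1462 CPM in wild type, and 0 passed in edgeR. Over all tested genes 53.07% were above 0, 2.23% had an unadjusted p under 0.05 and 1.44% had groups that did not overlap. Markers of a cell type can vary together, so their signs are not independent counts. Smooth muscle markers had 5 of 5 below 0, with a median of -0.54, and 0 passed in edgeR. Of them 2 had an unadjusted p under 0.05 and 1 had groups that did not overlap. They summed to 270 to 349 CPM in knockout and 347 to 885 CPM in wild type, and their mean log2 level had r = -0.67 with Arntl (exact permutation p = 0.0441, adjusted p = 0.515; rho -0.62, exact permutation p = 0.115; -0.80 over 6 mice). With the genotype means subtracted this r was -0.52 (exact permutation within genotypes, p = 0.184). Adipocyte markers had r = 0.72 with Nr1d1 (exact permutation p = 0.0390, adjusted p = 0.515; rho 0.74, exact permutation p = 0.0458; 0.71 over 6 mice). Endothelial markers summed to 529 to 883 CPM in knockout and 545 to 856 CPM in wild type and had r = 0.76 with Nr1d1 (exact permutation p = 0.0258, adjusted p = 0.515; rho 0.83, exact permutation p = 0.0154; 0.48 over 6 mice). The part of the cell mixture in the clock gene differences between mice was not tested beyond these values.

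Per1 and most glucocorticoid-induced genes were low in the same pair of mice. The 9 genes of that list, all tested and 0 of them called, summed to 1314, 686, 1091 and 1446 CPM in knockout and to 988, 836, 1247 and 1268 CPM in wild type, with knockout mouse 2 and wild-type mouse 2 lowest. Those mice held the 2 lowest values of 7 genes of the list, and the metallothioneins Mt1 and Mt2 did not share this. Mt1 was at 256, 166, 152 and 304 CPM in knockout and at 119, 193, 239 and 213 CPM in wild type. Klf9, which encodes a zinc finger factor, had the highest r with Per1 in the list, at 0.95, and was chosen after its values were seen. Mt1 and Mt2 had r = 0.14 and 0.25 with Per1. Klf9 was at 77.2, 51.7, 91.1 and 69.2 CPM in knockout and at 87.5, 49.5, 83.6 and 94.2 CPM in wild type. Over 8 mice Per1 had r = 0.89 with the mean of the list (exact permutation p = 0.0175, adjusted p = 0.515; rho 0.67, exact permutation p = 0.0831). Among the 6 mice without that pair r was 0.17, so the relation rests on knockout mouse 2 and wild-type mouse 2. Per2 had r = 0.76 with the same mean (exact permutation p = 0.0357, adjusted p = 0.515; rho 0.36, exact permutation p = 0.389) and -0.72 over the 6 mice, so its sign turned. The immediate early genes, which respond to acute stimuli, had 5 of 9 above 0 and 0 called, and temperature-responsive genes 3 of 9 above 0 and 0 called.

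The mean of the temperature-responsive list had r = -0.85 with Dbp over the 8 mice (exact permutation p = 0.00873, adjusted p = 0.515; rho -0.79, exact permutation p = 0.0279), and -0.49 over 6 mice. Its members went both ways. Of the heat shock genes, Hspb1 and Hspa8 had the r of largest size with Dbp, at -0.83 and -0.81. The other heat shock genes were weaker, from -0.58 for Hsph1 to -0.18 for Hsp90aa1. The cold-induced genes Cirbp and Rbm3 had 0.58 and 0.42. These values of single genes are described here without a test. The same list mean had r = -0.77 with Cry1 (exact permutation p = 0.0270, adjusted p = 0.515; rho -0.74, exact permutation p = 0.0458), and -0.58 over 6 mice. The mean of the other clock loop genes followed Dbp at r = 0.88 (exact permutation p = 0.00337, adjusted p = 0.472, the smallest of the 140; rho 0.93, exact permutation p = 0.00223), and at 0.93 over 6 mice. Single genes of that list had an r with Dbp from 0.94 for Bhlhe41 to -0.34 for Nfil3, with Arntl2 (-0.21) and Rora (-0.16) also below 0. The clock kinase and ligase list, Timeless included, had r = 0.77 with Per2 (exact permutation p = 0.0310, adjusted p = 0.515; rho 0.88, exact permutation p = 0.00724), and 0.76 over 6 mice. Among all 140 relations 12 had an unadjusted exact p under 0.05, and only these relations with list means are given here. Chance puts about 1 in 20 relations under that threshold. The relations share members, lists and mice and are not independent of each other.

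**Figure D5:**
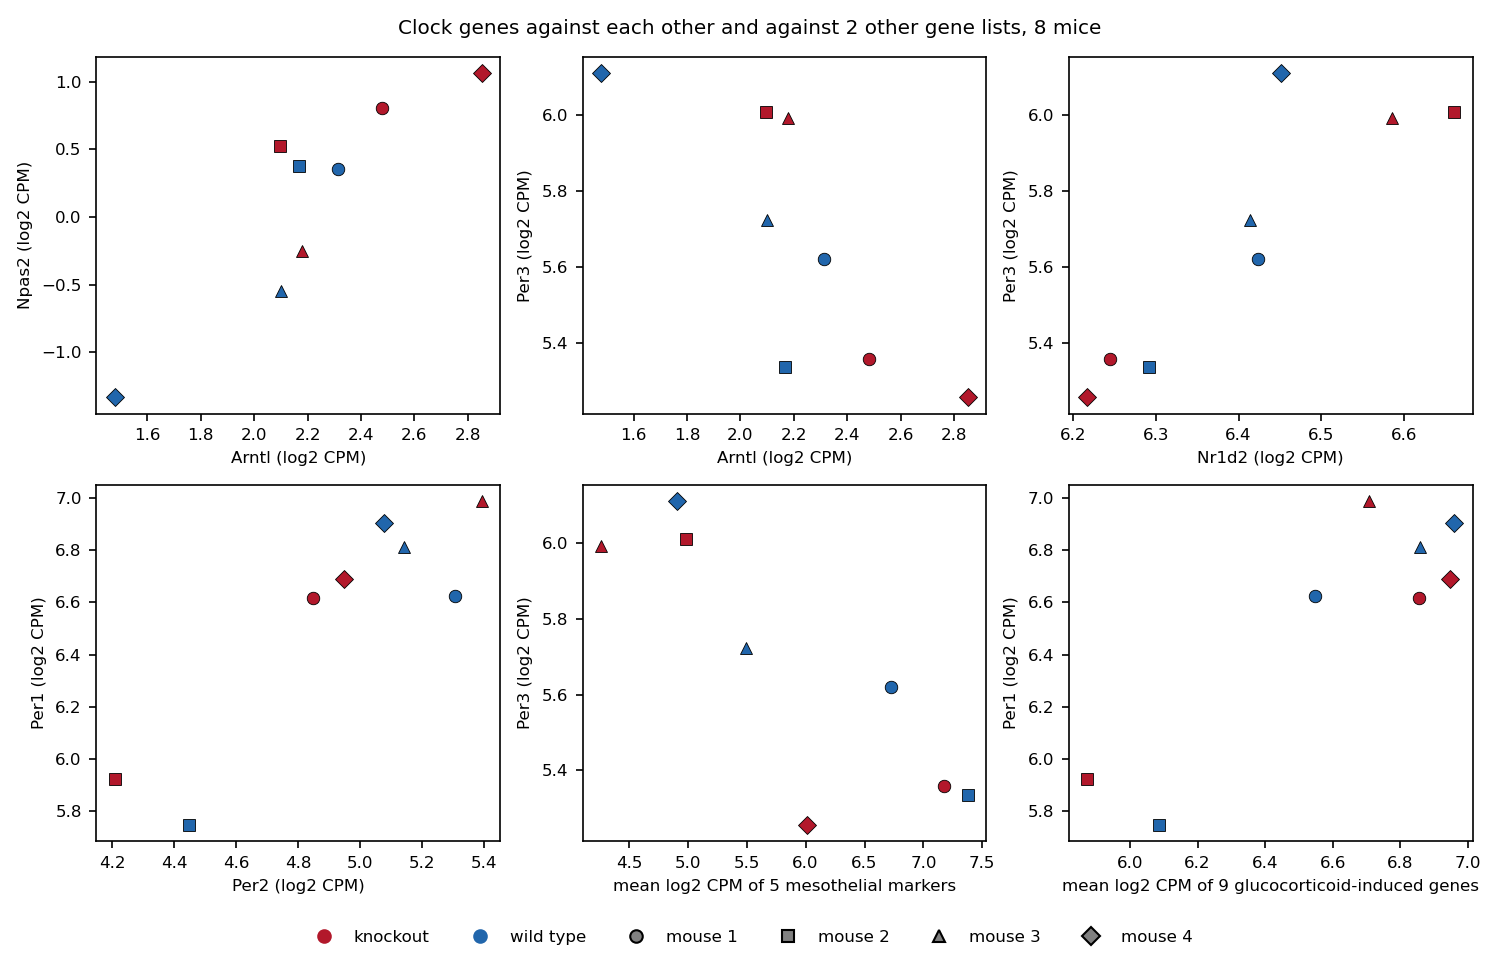
Levels in log2 CPM of clock genes against each other and against the mean of 5 mesothelial markers and of 9 glucocorticoid-induced genes, 1 point per mouse, knockout in red and wild type in blue, with a shape for each mouse number. Per3 runs against Arntl and against the mesothelial mean (r of -0.78 and -0.84), and knockout mouse 2 and wild-type mouse 2 stand apart in both Per1 panels.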

How the data were processed

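RNA-seq was made from whole perigonadal adipose tissue of 4 knockout and 4 wild-type mice. The deposited values are whole-number counts of reads for each gene symbol, in a file for every mouse, and the values show them to be raw. Per the submitters' processing notes, mm10, STAR 2.4.0g1, featureCounts, edgeR, Cufflinks and FastQC 0.11.2 were used, without a role or strand setting for any. Lengths and overlaps of exons were read from the merged annotation that the authors deposited.

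The labels gave the groups. Libraries of the same genotype differed by more than sampling noise in every pair (smallest chi-square per degree of freedom 66.9). Genes were filtered with filterByExpr in edgeR 4.0.16 (R 4.3.3), scaled by TMM (factors 0.966 to 1.05) and compared, knockout over wild type, by the robust quasi-likelihood F test without covariates. Benjamini-Hochberg adjustment ran over 14493 genes, with a threshold of 0.05. The biological coefficient of variation, common to all genes, was 0.301. Each SE was derived from the F statistic. CPM and RPKM were computed here from the counts with TMM-scaled library sizes, and log2 CPM with a prior count of 2. The 70 arrangements of 4 against 4 mice gave exact tests of single genes. Relations between genes used log2 CPM over 8 mice.

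Members, gene lists, the contrast and the tests were chosen with earlier results of these data known. All 10 members are given; of other lists, genes with the smallest p and the clock loop genes, and the 8 genes nearest the contrast on either side. Of 110 listed symbols 3 were matched to an older symbol. Relations of members with list means, and the regression on mesothelial level, were added after the data were examined. The procedures were tested on simulated data. Alternatives were RLE factors, total counts, no filter, a filter of 1 CPM in 4 libraries, a replicate block, DESeq2 1.42.0, limma voom (limma 3.58.1), non-robust dispersion and libraries left out. The targeted gene is not reported here.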

Additional observations from a re-analysis of the deposited data

Results flagged for a closer look

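No clock gene had a mouse far from the others of its genotype by Dixon's criterion, which was applied to 48 groups of 4 mice (the 10 members and 14 list means in each genotype) and marked 3, where chance marks about 1 in 20, or 2.4. Epithelial and ciliated markers had a mean log2 CPM of 3.20 in wild-type mouse 3, against -0.96 to -0.68 in the other wild-type mice. Smooth muscle markers had a mean log2 CPM of 5.63 in knockout mouse 2, against 4.75 to 4.88 in the other knockout mice, and of 4.74 in wild-type mouse 1, against 5.86 to 6.03 in the other wild-type mice. Their part in the clock gene values was not tested.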

How the results depend on the processing

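The count of clock genes past the threshold was 0 in all 17 alternatives. Over all genes the count was 2, and it was 17 (8 higher) with DESeq2 and 0 with total counts, no filter, a replicate block, limma voom, the pair of epithelial-marker libraries left out, and each library left out (0 to 0); the cause was not tested. Among member pairs the count was 0 to 1 with libraries left out. Signs of small log2 fold changes turned for Per3 with total counts (0.0015), for Nr1d1 with a replicate block (-0.0020) and limma voom (-0.0041), and for Per2 (0.097), Dbp (-0.16) and Nr1d2 (-0.031) without knockout library 2 and wild-type library 3. With single libraries left out, they ranged from -0.16 to 0.13 for Per3, -0.26 to 0.19 for Nr1d1, -0.18 to 0.18 for Per1, -0.11 to 0.27 for Dbp, -0.041 to 0.10 for Nr1d2 and -0.33 to 0.052 for Per2. The signs of Arntl, Clock, Npas2 and Cry1 and of the 8 pairs named by an exact p under 0.05 held in every alternative run. The labels do not say whether replicate numbers pair the mice. Deviations of same-numbered mice correlated at 0.117, -0.0152, -0.32 and -0.0173. Differently numbered mice were not compared, so these values cannot settle the pairing. For members other than Npas2 the spread between 4 mice a genotype, rather than depth, set the precision. Npas2, with 17 to 100 counts, also had a wide spread (SD of log2 CPM within genotypes 0.70). The shares of counting error and of spread between mice in its precision were not separated.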
